A study of Rattus norvegicus with 6 samples.

Results

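The miR-183/miR-96/miR-182 cluster is a group of 3 miRNA precursors encoded side by side, and its mature products were examined in small RNA libraries from rat cortical neurons. The members were chosen by name, as rno-miR-183-5p, rno-miR-183-3p, rno-miR-96-5p and rno-miR-182. All 4 were present among the 649 mature miRNAs listed in each library. The neurons came from embryonic day 18 Sprague-Dawley rats of both sexes, were grown as dissociated primary cultures and were treated at 7 days in vitro, according to the labels. A legend of the study places these cultures a day earlier. Per the methods, cortical cultures received fluorodeoxyuridine and uridine from day 4 in vitro, to keep non-neuronal cells from dividing. Control neurons received the vehicle, 0.1% BSA, and treated neurons received brain-derived neurotrophic factor (BDNF) at 100 ng/ml, each for 20 min. BDNF is a secreted growth factor released by active neurons. There were 3 control and 3 BDNF libraries, numbered as replicates 1 to 3 in each condition, with totals between 10374120 and 12533029 counts. The comparison asked whether a brief BDNF stimulus altered the level of mature miRNAs.

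The hairpins of miR-183, miR-96 and miR-182 are made from a common primary transcript, from which Drosha cuts the hairpins in the nucleus and Dicer releases a short duplex in the cytoplasm. One strand of each duplex is loaded onto an Argonaute protein, and its seed, the bases near the 5′ end, selects the mRNAs that are repressed. The cluster is best known from sensory cells, being abundant in photoreceptors, hair cells of the inner ear and sensory ganglion neurons, and its level in the retina follows light. Mutations in the seed of miR-96 cause hearing loss. A cortical culture is therefore not the tissue in which the cluster is most studied.

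The sequences of the members are shown because their seeds and their similarity bear on how they are counted and grouped. RefSeq sequences on the GRCr8 build were matched by name for 4 of 4 members, and capitals mark the seed, bases 2 to 8.
rno-miR-183-5p: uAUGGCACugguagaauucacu
rno-miR-183-3p: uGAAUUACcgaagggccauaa
rno-miR-96-5p: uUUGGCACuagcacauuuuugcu
rno-miR-182: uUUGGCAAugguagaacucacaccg

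No pair of members had the same seed. MiR-96-5p and miR-182 shared bases 2 to 7, UUGGCA, and differed at base 8 (C8A, from miR-96-5p to miR-182, counted from the 5′ end). No other miRNA listed in the libraries with a RefSeq sequence carried that core at bases 2 to 7. Over the whole sequence the resemblance ran differently. MiR-183-5p and miR-182 had the same base at 18 of 22 positions, with the substitutions A2U, C8A, U17C and U22A from the former to the latter, and shared the stretch UGGUAGAA from base 9. MiR-96-5p had 12 of 23 positions in common with miR-182 and 13 of 22 with miR-183-5p, with which it shared the stretch UGGCACU from base 3. The closest sequence to miR-182 among the listed miRNAs was miR-183-5p and the reverse also held, at 4 mismatches. The aligner used by the authors allowed 1 mismatch and also trimmed or extended ends. Of the 4 substitutions in this pair, A2U and U22A lie near an end and C8A and U17C do not. How reads of this pair were assigned was not tested.

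On GRCr8 the mature sequences lie on the minus strand of chromosome 4, with miR-183-5p at chr4:59756106-59756127, miR-183-3p at chr4:59756067-59756087, miR-96-5p at chr4:59755901-59755923 and miR-182 at chr4:59752249-59752273. In the direction of transcription the order is thus miR-183, miR-96 and miR-182. The hairpins of miR-183 and miR-96 are separated by 97 bases, whereas 3533 bases lie between those of miR-96 and miR-182. The whole cluster spans 3908 bases between the protein-coding genes Nrf1 and Ube2h and overlaps neither. In the RefSeq annotation a further miRNA gene, Mir3553, lies opposite miR-183 on the plus strand, and its mature product was not among the listed miRNAs. The RefSeq hairpin of miR-182 ends 3 bases after the mature sequence, and the files list no second arm for it. The other arm of miR-96, miR-96-3p, was listed with counts of 0, 2 and 4 in the control libraries and 0 in each BDNF library. A count of 0 allows up to 3 reads, or 0.287 RPM (reads-per-million of the library total) in control 1 and up to 0.266 RPM in the BDNF libraries. Only the 4 reads in control 3 were above the 3 reads that a count of 0 allows, so miR-96-3p was at or near the limit of detection.

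Within the cluster the products were found at very different read levels. MiR-182 was the most frequent, with 412, 501 and 645 RPM in control replicates 1, 2 and 3 and 370, 511 and 669 RPM in BDNF replicates 1, 2 and 3. This placed it between rank 93 and rank 115 of the 649 miRNAs, counted from the most abundant. MiR-183-5p, the 5′ arm product of the first hairpin, followed with 227, 294 and 353 RPM in control replicates and 202, 281 and 343 RPM in BDNF replicates, at ranks 128 to 145. MiR-96-5p, the product of the middle hairpin, was read at 14.1, 12.8 and 10.02 RPM in control replicates and 10.9, 16.1 and 12.4 RPM in BDNF replicates, at ranks 299 to 336. MiR-183-3p, the opposite arm of miR-183, had only 0.479, 0.559 and 0.675 RPM in control replicates and 0.770, 0.266 and 1.26 RPM in BDNF replicates. The 4 ranges did not overlap, so the order miR-182, miR-183-5p, miR-96-5p and miR-183-3p was the same in each of the 6 libraries. These are read levels, and how efficiently each sequence was captured was not measured.

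**Figure D1:**
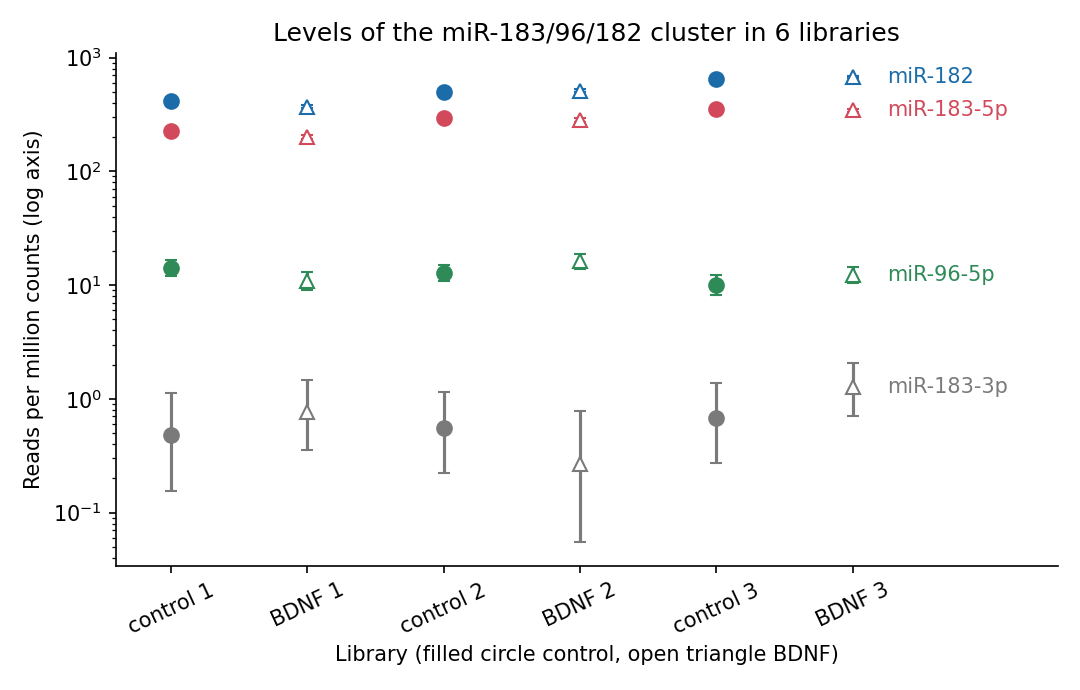
Level of each mature product of the cluster, in RPM on a log axis, in every library ordered by replicate number, with filled circles for control, open triangles for BDNF and bars for the exact 95% Poisson interval, which covers counting error only. MiR-182 and miR-183-5p lie above 200 RPM, miR-96-5p between 10.02 and 16.1 RPM and miR-183-3p between 0.266 and 1.26 RPM, with no overlap between members.

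Together the 4 members held 6816 to 12203 reads per library, or 583 to 1025 RPM. MiR-182 took between 62.0% and 65.3% of them. The lowest share, in control 2, had an exact 95% binomial interval of 61.0 to 62.9%, and the highest, in BDNF 3, one of 64.4 to 66.1%. MiR-183-5p took 33.4 to 36.4%, miR-96-5p 0.994 to 2.15% and miR-183-3p 0.0329 to 0.132%. The cluster therefore reached the sequencer almost entirely as miR-182 and miR-183-5p. Counting error was small beside the spread between libraries for these abundant members. In control libraries miR-182 varied by 22.7% (coefficient of variation, n = 3) and miR-183-5p by 21.6%, where counting alone would give 1.32% and 1.76%. For miR-96-5p, with 104 to 160 reads in control libraries, the corresponding values were 16.8% and 8.54%. MiR-183-3p had 3 to 15 reads per library, and counting alone would give 39.7% in control libraries, more than the 17.3% observed. In BDNF libraries the observed 64.9% was above the 33.3% from counting. These intervals and floors cover counting error only, since the reads carried no molecular identifiers.

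BDNF did not detectably change the level of any member. The mean level of miR-182 was 519 ± 118 RPM without and 517 ± 150 RPM with BDNF (SD, n = 3 each). On the log2 scale BDNF differed from control by 0.0059 (standard error 0.20, 95% interval -0.47 to 0.48), and edgeR's quasi-likelihood test gave an adjusted P-value of 0.999. MiR-183-5p averaged 292 ± 63.0 RPM without and 275 ± 70.5 RPM with BDNF (SD, n = 3 each), a log2 fold change of -0.069 (standard error 0.19, 95% interval -0.52 to 0.39, edgeR adjusted P-value 0.999). MiR-96-5p averaged 12.3 ± 2.07 RPM without and 13.1 ± 2.72 RPM with BDNF (SD, n = 3 each), a log2 fold change of 0.11 (standard error 0.22, 95% interval -0.42 to 0.64, edgeR adjusted P-value 0.999). The unadjusted P-values were 0.98, 0.73 and 0.64 in the same order. The control and BDNF libraries overlapped for each member, and leaving out any of the 6 libraries brought none past the threshold.

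Of the 3 members that passed the filter of 10 RPM, 0 had an unadjusted P-value below 0.05, the threshold of the study, in a fit where 2.98% of the 336 miRNAs tested did. Those were 5 higher and 5 lower miRNAs, a split that became 2 higher and 4 lower with library-size scaling and 6 higher and 2 lower with upper-quartile scaling. Groups that did not overlap in normalized RPM were seen for 0 of these 3 members and for 7.14% of all miRNAs tested. MiR-183-3p was below the filter. An edgeR fit of every listed miRNA gave it a log2 fold change of 0.44 (standard error 0.52, 95% interval -0.73 to 1.62, adjusted P-value 1.00), a wide interval that rests on 3 to 15 reads per library.

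Libraries with the same replicate number resembled each other, and the comparison within numbers was narrower. For miR-182 the BDNF library had 0.96, 1.00 and 1.03 times the normalized RPM of the control library in numbers 1, 2 and 3. MiR-183-5p gave 0.95, 0.94 and 0.97 and was thus slightly lower with BDNF in each of the 3 numbers. MiR-96-5p gave 0.83, 1.24 and 1.23, without a common direction. With the replicate number as a block, the 95% interval of the log2 fold change narrowed to -0.15 to 0.15 for miR-182, -0.22 to 0.079 for miR-183-5p and -0.20 to 0.44 for miR-96-5p. The adjusted P-values in this edgeR fit were 1.00, 0.60 and 0.69. Again 0 of the 3 members had an unadjusted P-value below 0.05, the smallest being 0.31 for miR-183-5p, while 20.5% of the miRNAs tested did.

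**Figure D2:**
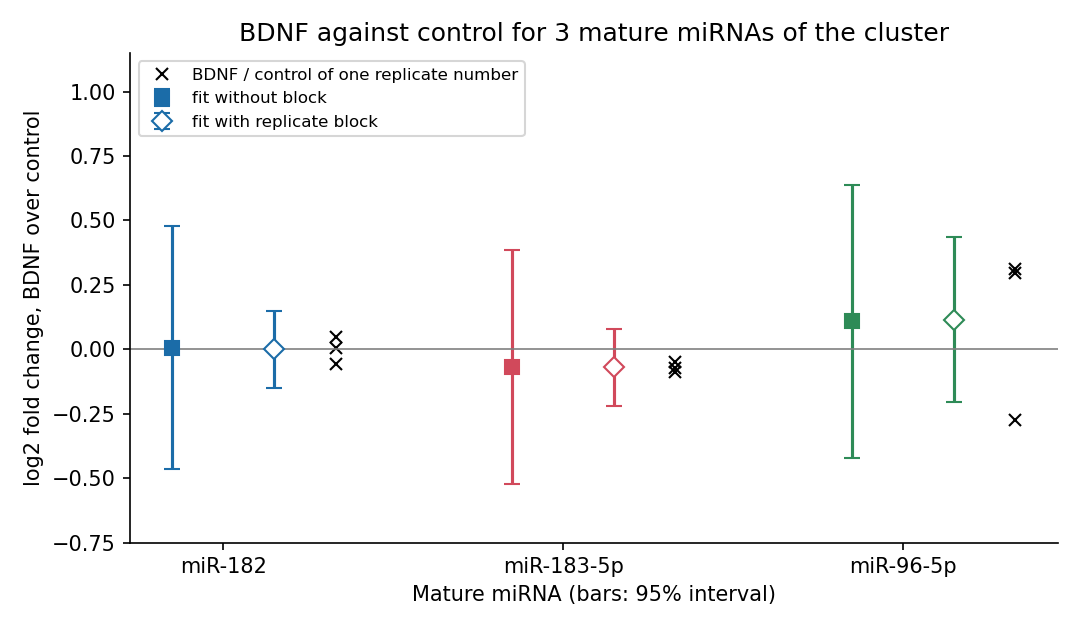
The log2 fold change of BDNF over control for miR-182, miR-183-5p and miR-96-5p in edgeR fits without (filled squares) and with (open diamonds) the replicate block, with 95% intervals as bars, and the log2 ratio within each replicate number as crosses. All 6 intervals include 0, and the crosses of miR-182 and miR-183-5p lie within a narrow band around it.

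The ratio between members within a library does not depend on scaling. MiR-182 was read 1.70 to 1.95 times as often as miR-183-5p over the 6 libraries. The log2 ratio of miR-183-5p to miR-182 averaged -0.83 ± 0.055 without and -0.90 ± 0.057 with BDNF (SD, n = 3 each), a difference of -0.069 (exact permutation test, two-sided, P = 0.2, adjusted 0.6 over the 3 ratios tested). Within replicate numbers this ratio was lower with BDNF in 3 of 3 pairs, and the exact permutation test within pairs gave P = 0.25, the smallest it can give. MiR-182 exceeded miR-96-5p by a much less constant factor, of 29.2, 39.2 and 64.3 in control replicates 1, 2 and 3 and of 34.0, 31.7 and 54.2 in BDNF replicates 1, 2 and 3. The log2 ratio of miR-96-5p to miR-182 differed by 0.11 between conditions, and that of miR-183-5p to miR-96-5p by -0.18 (exact permutation tests, two-sided, P = 0.7 and adjusted 0.7 for both). With 3 libraries against 3, the smallest P-value this test can give is 0.1.

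Reads of the miR-183 hairpin came almost entirely from its 5′ arm. There were 475, 527 and 523 reads of miR-183-5p for each read of miR-183-3p in control replicates, and 262, 1057 and 272 in BDNF replicates. The wide range in BDNF libraries rests on 9, 3 and 15 reads of the 3′ arm. In a limma fit over the precursors with at least 1 read of each arm in every library, the log2 5p/3p ratio of miR-183 differed by -0.27 between BDNF and control (standard error 0.53, 95% interval -1.44 to 0.90, adjusted P-value 0.98). A change in the arm ratio of miR-183 was thus not detectable at this depth.

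Replicate number separated the libraries more than BDNF did. MiR-182 averaged 391 RPM in the pair of libraries numbered 1, 506 in those numbered 2 and 657 in those numbered 3, and miR-183-5p averaged 215, 288 and 348 RPM. For miR-182 the fitted log2 difference between numbers 3 and 1 was 0.58 (standard error 0.079), a 1.49-fold higher level, and for miR-183-5p it was 0.53 (standard error 0.080), a 1.44-fold higher level. The adjusted P-values over the 3 numbers, with condition as a covariate in edgeR, were 0.0024 and 0.0032. MiR-96-5p did not share this pattern, with averages of 12.5, 14.5 and 11.2 RPM, a log2 difference of -0.33 (standard error 0.17) and an adjusted P-value of 0.074 in edgeR. This test was added after the levels had been seen. Differences between numbers were widespread, with 48.2% of the miRNAs tested having an adjusted P-value below 0.05, so that the call for 2 of 3 members is not particular to the cluster. Ordered from the most positive to the most negative difference, miR-182 was at rank 27 of 336, miR-183-5p at rank 34 and miR-96-5p at rank 255.

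The scaling moved these differences but not their direction. The median difference between numbers 3 and 1 over all 336 miRNAs was -0.014 with TMM, 0.16 with library-size scaling and -0.11 with upper-quartile scaling. MiR-182 stood at 0.58, 0.75 and 0.48 under these scalings, miR-183-5p at 0.53, 0.70 and 0.43, and miR-96-5p at -0.33, -0.15 and -0.43. MiR-182 and miR-183-5p were above the median and miR-96-5p below it under each.

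**Figure D3:**
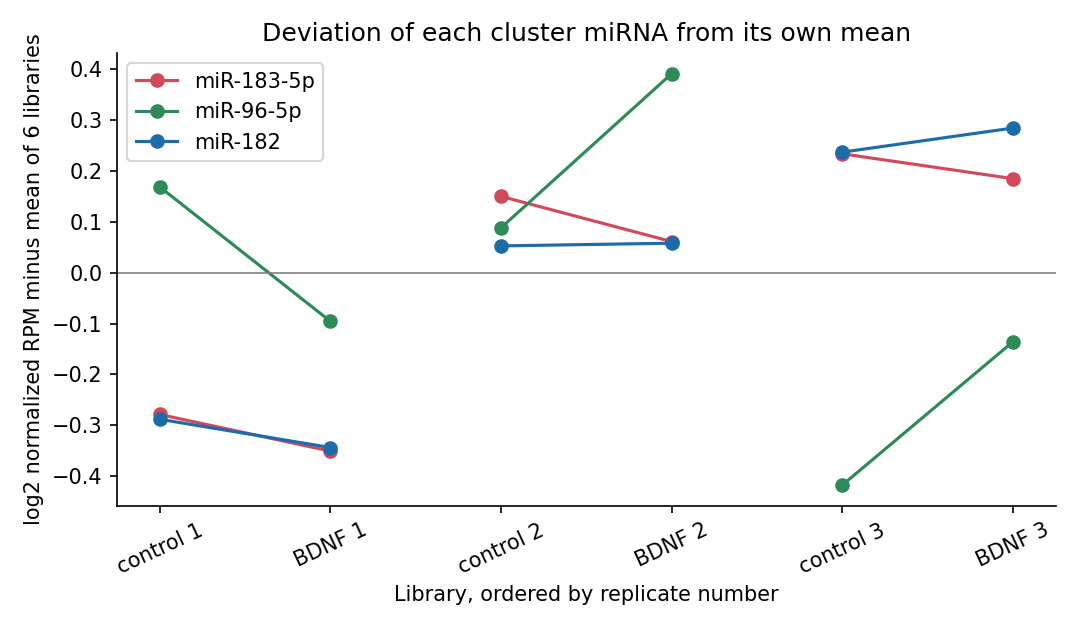
Deviation of log2 normalized RPM from its mean over the 6 libraries, for miR-182, miR-183-5p and miR-96-5p, with a line joining the control and BDNF libraries of each replicate number. MiR-182 and miR-183-5p run together and are lowest in the libraries numbered 1 and highest in those numbered 3, whereas miR-96-5p is lowest in control 3 and highest in BDNF 2.

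MiR-182 and miR-183-5p had similar profiles over the 6 libraries. After centring each miRNA on its own mean, the mean absolute difference of log2 normalized RPM between them was 0.037. Of 335 other miRNAs, miR-182 was the nearest to miR-183-5p, and miR-183-5p was the second nearest to miR-182, where the median distance was 0.24 and 0.25. Apart from members, the 3 nearest to miR-182 were miR-346 (0.026), miR-505-3p (0.051) and miR-30b-3p (0.056), and those nearest to miR-183-5p were miR-30b-3p (0.041), miR-181b-5p (0.043) and miR-346 (0.047). MiR-96-5p lay far from its cluster mates, with miR-183-5p at place 275 and miR-182 at place 289 of 335, at distances of 0.34 and 0.36 against a median of 0.26. Its nearest miRNAs were miR-484 (0.11), miR-30d-3p (0.11) and let-7f-2-3p (0.12). The 6 libraries share preparation and differ by replicate number, so these distances describe the libraries as much as the miRNAs.

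Other polycistrons were examined in the same way. In the miR-17~92 cluster, known for promoting cell proliferation, the members spanned an 82.2-fold range, from miR-18a-5p at 50.6 RPM to miR-20a-5p at 4158 RPM, and the distance between pairs ran from 0.037 to 0.22. The related miR-106b~25 cluster spanned 8.82-fold, with distances of 0.086 to 0.14, and miR-221 and miR-222 differed 3.28-fold, at a distance of 0.15. The 40.8-fold range from miR-96-5p to miR-182 was narrower than that of miR-17~92. It was wider than that of miR-106b~25 and that of miR-221 and miR-222. The distance of up to 0.36 within the miR-183/miR-96/miR-182 cluster was above those in the other 3 clusters, which were not tested against it and whose members averaged at least 50.6 RPM, against 12.7 RPM for miR-96-5p.

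Base composition went along with the difference between replicate numbers. Sequences were found for 307 of the 336 miRNAs tested (91.4%). The log2 difference between numbers 3 and 1 had a median of -0.41 over the 59 miRNAs with a GC content below 40%, of which 7 were above 0, compared with a median of -0.00067 over the 119 with at least 40% but less than 50% and of 0.14 over the 129 with 50% or more. Across these 307 miRNAs, which are not independent, Pearson's r between GC content and the difference was 0.42 and Spearman's rho 0.44. MiR-96-5p has a GC content of 39.1% and fell in the first group, within its quartiles of -0.78 to -0.21. MiR-183-5p, at 40.9%, and miR-182, at 48.0%, both lay above the upper quartile of 0.25 of the middle group. MiR-183-5p and miR-96-5p, at 40.9% and 39.1%, differed in direction. In the middle group 59 of the 119 miRNAs were above 0, and in the highest group 83 of the 129 were. For miR-96-5p the adjusted P-value over the 3 numbers in edgeR was 0.074. The part of base composition in these differences was not tested.

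**Figure D4:**
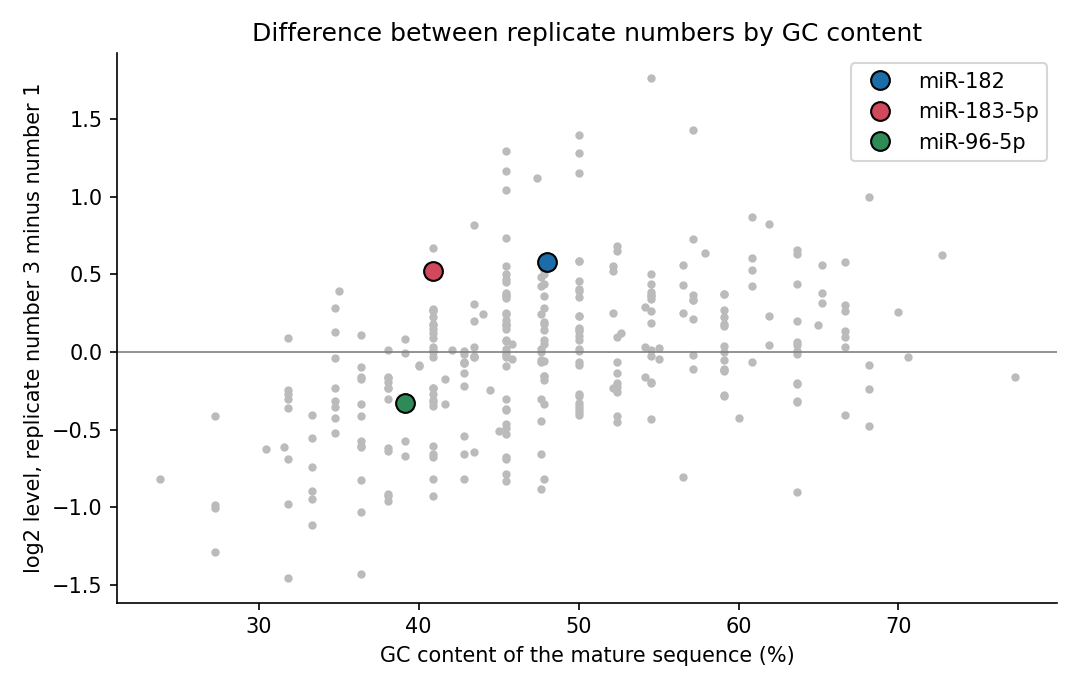
The log2 difference in level between replicate numbers 3 and 1, from the edgeR fit with TMM, against the GC content of the mature sequence for 307 miRNAs in grey, with the 3 cluster members in colour. MiR-96-5p, at 39.1% GC, lies below 0 with most miRNAs of low GC content, and miR-183-5p (40.9%) and miR-182 (48.0%) lie above 0.5.

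The cluster was set beside 10 miRNAs linked to neuronal activity, of which 9 passed the filter. In the edgeR test of BDNF against control, 0 of the 9 had an unadjusted P-value below 0.05, beside 2.98% of all miRNAs tested, and their median log2 fold change was -0.11, against -0.0015 over all 336. With the replicate block, 0 were higher and 3 were lower at the same threshold (miR-132-3p, miR-212-3p and miR-138-5p), with adjusted P-values of 0.17, 0.17 and 0.14 in edgeR. In that fit 20.5% of all miRNAs tested passed, 26 higher and 43 lower of 336. MiR-132 and miR-212 are induced through the transcription factor CREB. Their 4 mature products varied more between replicate numbers than the members did, with log2 differences of 1.29 to 1.77 between numbers 3 and 1. MiR-132-3p, for example, had 604, 810 and 1825 RPM in control replicates 1, 2 and 3 and 501, 732 and 1466 RPM in BDNF replicates 1, 2 and 3. It was thus highest in number 3 and lowest in number 1 in both conditions, as were miR-182 and miR-183-5p. Of all 336 miRNAs tested, 161 had a log2 difference above 0 between numbers 3 and 1. The other tested miRNAs of the list had smaller log2 differences, of 0.44 for miR-181a-5p, 0.43 for miR-138-5p and 0.18 for miR-134-5p. For miR-485-5p the difference was 0.016 and for miR-146a-5p -0.31. The part of neuronal activity in these differences was not tested.

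Markers of the cell types that the cultures could hold were read in the same libraries. The neuronal miR-124-3p, miR-9a-5p and miR-128-3p, 3 of 3 listed, summed to between 334540 and 392076 RPM in control and between 376183 and 411702 RPM in BDNF libraries, and the sum was lowest in number 3 in both conditions. That minimum was that of miR-9a-5p, at 249572 to 331060 RPM, whereas miR-124-3p and miR-128-3p were not lowest in number 3 in either condition. The glial list (4 of 4 listed), led by miR-21-5p, summed to 5617 to 7331 RPM in control and 5652 to 7529 RPM in BDNF libraries, and was highest in number 1 and lowest in number 3 in both conditions. This order was that of miR-21-5p, while the other 3 glial miRNAs, at 6.07 to 26.1 RPM, did not follow it in both conditions. The blood and vessel list (3 of 4 listed) summed to 69.3 to 84.6 RPM in control and 63.0 to 83.0 RPM in BDNF libraries. The 6 miRNAs of other sensory or epithelial cells were all listed and summed to 504 to 678 RPM in control and 446 to 679 RPM in BDNF libraries, nearly all of it miR-204-5p, which is abundant in choroid plexus and retinal pigment epithelium. MiR-204-5p had 500, 571 and 673 RPM in control replicates and 441, 486 and 674 RPM in BDNF replicates. It too was highest in number 3, with a log2 difference of 0.35 between numbers 3 and 1. A difference above 0 was seen for 161 of the 336 miRNAs tested. The other 5 stayed between 0 and 2.48 RPM. Of these, miR-184 and miR-429 were highest in number 3 in both conditions, whereas miR-211-5p, miR-200b-3p and miR-200a-3p were not. None of the listed markers was at 0 in all 6 libraries. The part of cell composition in the levels of miR-182 and miR-183-5p was not tested, and in such bulk libraries more cells of a type and more miRNA per cell cannot be told apart.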

How the data were processed

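Per the methods, the authors prepared the libraries with a multiplex small RNA kit and sequenced them in a single lane. Reads were trimmed of the 3′ adapter, filtered by quality and length, and assigned with Miraligner (1 mismatch, trimmed and extended ends allowed) to rat mature miRNAs of miRBase release 21. The deposited values are raw read counts for each of 649 mature miRNAs, with isomiRs summed and replicates kept apart.

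RPM were computed here from the file total. The quasi-likelihood test of edgeR 4.0.16 (R 4.3.3) was applied to the counts, taking the file total as the library size and scaling by TMM (factors 0.928 to 1.08). Testing covered the 336 miRNAs that averaged 10 RPM or more in either condition, and P-values were adjusted by the Benjamini-Hochberg method over all of them. The 5p/3p ratio was fitted with limma 3.58.1 on log2 of counts plus 0.5. The planned limit of 1 RPM for both arms left out miR-183, so a limit of 1 read in every library was used instead, which was chosen after seeing the data. The edgeR fit and the limma fit of the 5p/3p ratio were tested on simulated data. Members, lists and alternatives (DESeq2 1.42.0 among them) were chosen with earlier results of these data known. Named miRNAs were the members, their other arms, miRNAs sharing bases 2 to 7 with a member, the 3 nearest profiles, members of 3 other polycistrons and the activity and cell type lists.

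Libraries with the same replicate number deviated together from their condition mean over the 336 miRNAs, with correlations of 0.81, 0.49 and 0.89 for numbers 1, 2 and 3. They were therefore also compared as pairs by the numbers in the labels. The main edgeR fit, the fits without single libraries, the limma fit and the permutation tests between conditions had condition as the only factor. Their errors thus include the spread between replicate numbers. The study calls the replicates biological. No pair of libraries of a condition was as close as sampling noise, with chi-square values of at least 147 per degree of freedom. Coordinates and sequences are from RefSeq on GRCr8 and were matched by name. IsomiRs were not analysed here.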

Additional observations from a re-analysis of the deposited data

How the results depend on the processing

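No member passed an unadjusted P-value of 0.05 for BDNF against control under any alternative run, the smallest being 0.34 for miR-182, 0.29 for miR-183-5p, 0.28 for miR-96-5p and 0.088 for miR-183-3p. The direction was not stable for values this close to 0. The log2 fold change of miR-182 turned from 0.0059 to -0.0068 with library-size scaling, -0.00016 with limma-voom, -0.00094 and -0.00096 with limma on log2 normalized RPM plus 1 and plus 0.1, -0.00063 with the replicate block and -0.011 without both libraries numbered 3, and that of miR-96-5p to -0.020 without both libraries numbered 2 (alternatives without both libraries of a number were added after seeing the data). Leaving out single libraries gave -0.15 to 0.16 for miR-182, -0.18 to 0.073 for miR-183-5p, -0.088 to 0.25 for miR-96-5p and -0.041 to 0.85 for miR-183-3p. The difference in log2 ratio then ran from -0.88 to 0.056 for the arms of miR-183, from -0.20 to 0.37 for miR-96-5p to miR-182, from -0.088 to -0.037 for miR-183-5p to miR-182 (-0.038 without control 2 and -0.037 without BDNF 3) and from -0.45 to 0.11 for miR-183-5p to miR-96-5p.

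The number of miRNAs past the unadjusted threshold was 10, and 6 with library-size scaling, 6 with the likelihood-ratio test and 69 with the replicate block. Leaving out single libraries gave 3 to 32, with 32 without control 1, 3 without control 2, 5 without control 3 and 5 without BDNF 2. Leaving out both libraries numbered 1, 2 or 3 gave 25, 0 and 3. The cause was not tested. Leaving miR-9a-5p, the most abundant miRNA, out of the total raised the mean level in control and BDNF libraries to 724 and 739 RPM for miR-182, 407 and 394 RPM for miR-183-5p, 17.3 and 18.9 RPM for miR-96-5p, and to 0.797 RPM for miR-183-3p in control. The filter of 10 RPM left miR-183 without an arm ratio, so that alternative was not run. Depth limits miR-183-3p most, with at most 15 reads in a library.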
